A study of Mus musculus with 1536 samples.

Results

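The genes that encode the pores and the auxiliary subunits of the voltage-gated sodium channels (Scn), the voltage-gated calcium channels (Cacn) and the HCN channels (Hcn), together with the sodium leak channel Nalcn, were examined in single serotonin neurons of the mouse raphe. They were taken by symbol, as every row named Scn with a number and a or b, Cacna1 with a letter from a to s, Cacna2d, Cacnb, Cacng or Hcn with a number, or Nalcn. Of the 53263 gene symbols listed, 45 matched, and 42 of these are described here as members. They were 9 sodium alpha subunits, 3 sodium beta subunits, Nalcn, 10 calcium alpha1 subunits, 4 alpha2delta subunits, 4 calcium beta subunits, 8 gamma subunits and 3 HCN channels. The rule uses no measured value.

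The cells came from mice labelled Sert-tdTomato-Cre and crossed to Ai14, on a C57BL/6J background and 40 to 45 days old. The paper names the driver line Sert-Cre, in which Cre is made under control of the Sert (Slc6a4) gene, and the red fluorescent protein tdTomato comes from the Ai14 reporter, which Cre switches on. Since the reporter marks every cell that has ever made Cre, the sort selects cells with a history of Sert expression. The 290 cells labelled as principal dorsal raphe (pDR) were on 5 sorting plates and the 709 cells labelled as the whole dorsal raphe were on 11 plates. The paper describes the second dissection as the pDR, the caudal dorsal raphe and the median raphe together, and it is called the mixed dissection here. The labels name no agent, and both dissections share the same alleles. The paper lists tetrodotoxin, kynurenic acid, D-AP5 and actinomycin D among its reagents without stating where they were used. Fluorescent cells were sorted singly, and each gave 1 full-length Smart-seq2 library. The cells of a dissection came from several brains that the labels do not name, so each dissection counts as 1 sample, the plates give the spread, and no test was made.

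A cell fires when voltage-gated sodium channels open, and serotonin neurons are known for slow, regular firing that many of them keep up without input. Sodium leak through NALCN and the inward current of HCN channels, which open on hyperpolarisation, carry the membrane toward threshold, low-threshold (T-type) calcium channels add current near rest, and high-threshold calcium channels let in the calcium that drives transmitter release and the potassium current after a spike. Beta, alpha2delta and gamma subunits set how many channels reach the membrane and how they gate, and several of the genes named for gamma subunits, Cacng2, Cacng3, Cacng4, Cacng5, Cacng7 and Cacng8, encode regulators of AMPA-type glutamate receptors (TARPs).

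Reads on genes came to between 96834 and 2780443 in a cell, with a median of 755925.5 in the pDR and 869546 in the mixed dissection. Summed over the 5 serotonin markers Tph2, Slc6a4, Slc18a2, Fev and Ddc, the mean of a plate was 15839 to 20241 CPM (counts per 1000000 reads on genes) in the pDR and 17651 to 21276 CPM in the mixed dissection. Summed astrocyte, microglial, endothelial and other-neuron markers each had a median of 0 CPM per cell in both dissections. The 5 oligodendrocyte markers summed to 18.7 to 114 CPM on the pDR plates and 44.4 to 1559 CPM on the mixed plates. They were above 1000 CPM in 2 pDR and 7 mixed cells, and without these cells each of the 9 main comparisons, 1 between the dissections and 8 by marker, called the same members.

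Of the 42 members, 32 had a mean over all cells above 2 CPM and entered the comparisons. The other 10 are the muscle and sensory neuron sodium channel genes Scn4a, Scn10a and Scn11a, the beta subunit Scn4b, and Cacna1f, Cacna1s, Cacna2d4, Cacng1, Cacng6 and Hcn4. Among these, Hcn4 was the most widely detected, with at least 1 read in 175 of 999 cells at a mean of 1.45 CPM. Cacna2d4 had a read in 77 cells, and each of the other 8 had one in between 2 and 23 cells. Scn10a and Scn4b had no read in the 290 pDR cells, which allows a share of up to 1.03% of cells by counting alone.

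A median of 26 members was detected per cell in both dissections, with 8 to 33 in the pDR and 3 to 33 in the mixed dissection. With every cell thinned to 250000 reads the median was 24 in both. In each dissection 27 members had a read in over 50% of cells, and 13 in the pDR and 14 in the mixed dissection had one in over 95%.

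To compare the levels of different genes, CPM was divided by the length of the gene's exons in GENCODE M21 (GRCm38), merged over its transcripts. The sodium channel beta subunit gene Scn2b was the most abundant member on this scale. It (chromosome 9, 45117782 to 45130070) stood at 181 CPM per kb in the pDR, with plates between 146 and 215, and at 108 CPM per kb in the mixed dissection, with plates between 59.3 and 182. Cacng3 followed at 54.4 CPM per kb (45.2 to 64.4) in the pDR and 26.6 (11.5 to 36.6) in the mixed dissection. Scn3b, at 24.8 and 22.8 CPM per kb, was next in both dissections, and in the mixed dissection its plates (17.1 to 33.7) overlapped with those of Cacng3.

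Among the sodium channel pores, Scn2a led in the pDR at 12.5 CPM per kb (10.8 to 15.8) and Scn9a led in the mixed dissection at 9.81 CPM per kb (8.53 to 12.8). The plates of these neighbours overlapped in each dissection. Scn9a is best known as a channel of peripheral sensory neurons, and it had a read in 97.5% of all cells (Clopper-Pearson 95% interval 96.3 to 98.4%). Its exons share 180 bases with a gene on the opposite strand, Gm13629. The counting ignored strand, so reads within the shared bases cannot be told apart by gene, and the level of Scn9a is uncertain. Scn3a stood at 6.27 and 3.69 CPM per kb, Scn1a at 4.18 and 3.75, and Scn8a at 1.76 and 2.06. Scn7a, which encodes the sodium-sensing channel Nax, stood at 1.90 and 1.37 CPM per kb. Nalcn, the leak channel, was at 2.14 CPM per kb (1.75 to 2.52) in the pDR and 1.83 (1.38 to 2.37) in the mixed dissection, where 93.8% and 88.7% of cells had a read.

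Among the calcium channel pores, Cacna1b, the pore of N-type channels, was highest at 7.23 CPM per kb (5.79 to 8.91) in the pDR and 7.13 (6.18 to 8.34) in the mixed dissection. In the pDR its plates overlapped with those of Cacna1e, the R-type pore, at 6.02 CPM per kb (3.79 to 7.95). The order depends on the division by length. In CPM, Cacna1e was higher than Cacna1b, at 152 against 71.8 in the pDR and 89.1 against 70.9 in the mixed dissection. The merged exons of Cacna1e are 25.2 kb long and those of Cacna1b 9.94 kb, counted whether or not these cells use them. Cacna1a, the P/Q-type pore, stood at 2.85 and 3.41 CPM per kb, and shares exon sequence with the opposite-strand gene Gm16183. The L-type pores Cacna1c and Cacna1d and the T-type pores Cacna1g, Cacna1h and Cacna1i all had means below 1 CPM per kb in both dissections.

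Cacna2d1 led the alpha2delta subunits at 11.0 CPM per kb (8.59 to 12.3) in the pDR and 6.12 (5.33 to 7.64) in the mixed dissection. Cacnb3 led the calcium beta subunits at 13.0 (10.4 to 15.5) and 19.8 CPM per kb (17.6 to 23.4). Cacng3 led the gamma family in both. Hcn3 led the HCN channels at 12.4 CPM per kb (8.06 to 19.1) in the pDR and 20.4 (15.5 to 27.6) in the mixed dissection, while Hcn2 stood at 1.73 and 1.41 CPM per kb. Of the exons of Hcn3, 711 bases are shared with the opposite-strand gene Pklr, so its level is uncertain. The same holds for Cacna1d, Cacna1h, Cacna1s, Cacna2d2, Cacnb1, Cacnb2, Cacnb4 and Cacng2, whose exons also overlap a listed gene of the opposite strand, and for Cacng8, which overlaps one of its own strand.

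**Figure D1:**
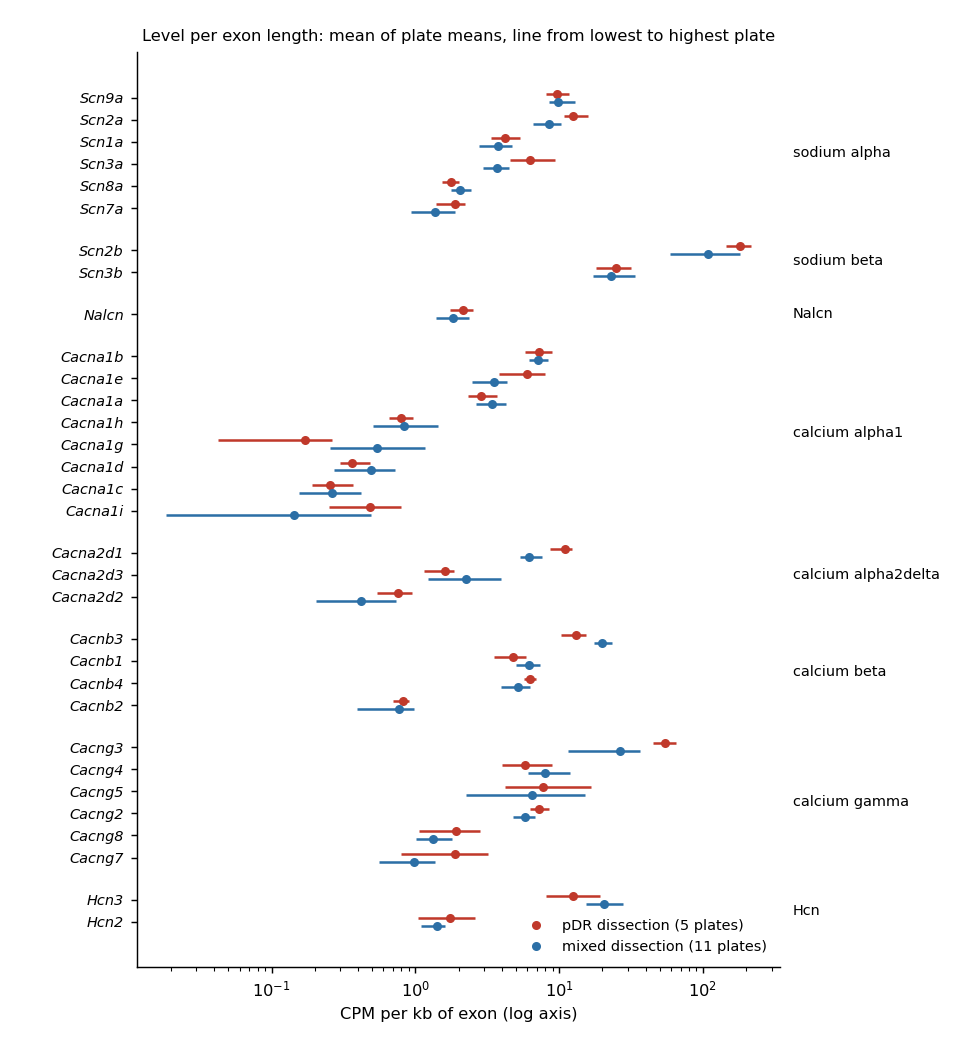
Level of the 32 members with a mean above 2 CPM, in CPM per kb of exon on a log axis, grouped by family, for the pDR (red, 5 plates) and the mixed dissection (blue, 11 plates); points are means of the plate means and lines run from the lowest to the highest plate. Scn2b is highest in both dissections (181 and 108 CPM per kb), and the points of the T-type and L-type calcium channel pores all lie below 1 CPM per kb.

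To ask how the members differ between kinds of serotonin neurons, cells with at least 1 read of a marker gene were set against cells of the same plate with none. A member was called where the log2 ratio of mean CPM, with 1 CPM added to both sides, averaged over plates to at least 1 in size and had the same sign on every plate with at least 3 cells on each side. The markers were Trh, the gene of thyrotropin-releasing hormone, Gad1 or Gad2, the genes of the GABA-synthesising enzymes, Slc17a8, the gene of the vesicular glutamate transporter Vglut3, and the transcription factor genes Zeb2 and Irx2. Of the 98 pDR cells with Trh, 97 also had Gad1 or Gad2, so the pDR comparisons by Trh, Gad and Slc17a8 share cells and do not stand for separate evidence.

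In the pDR, 98 cells had Trh and 192 had not, with medians of 771921 and 753678 reads. 4 of the 32 members were called. Cacna2d3 and Cacng5 fell, and the T-type pores Cacna1h and Cacna1i rose. Over all genes tested, 1.24% were called higher and 1.93% lower. The median log2 ratio was -0.03 over the members and -0.04 over all genes.

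Cacng5 (chromosome 11, 107874605 to 107915055), which encodes a TARP, had the largest difference of any member. In cells with Trh its mean was 3.78 CPM on plate 12, 2.01 on plate 13, 0.336 on plate 25, 0 on plate 39 and 0.322 on plate 40. In cells without Trh the same plates had 26.7, 22.8, 28.5, 105 and 38.6 CPM. The sides did not overlap, and the mean log2 ratio was -4.32 (plates -6.73 to -2.54). A read was found in 16.3% of cells with Trh (9.63 to 25.2%) and 65.6% of those without (58.4 to 72.3%), or 12.2% and 60.2% after thinning.

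Cacna2d3 (chromosome 14, 28904943 to 29721864) encodes an alpha2delta subunit, a class of proteins that brings calcium channels to the membrane and to nerve terminals. Cells with Trh had 4.17 CPM on plate 12, 8.46 on plate 13, 0 on plates 25 and 39 and 1.09 on plate 40. Cells without Trh had 21.9, 19.4, 12.8, 26.5 and 18.3 CPM. Again no plate of one side reached the other, and the mean log2 ratio was -3.01 (-4.78 to -1.11). The share of cells with a read was 24.5% (16.4 to 34.2%) against 51.0% (43.7 to 58.3%).

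Among the T-type pores, Cacna1h (chromosome 17, 25374285 to 25433783) had 8.87, 11.0, 12.7, 14.6 and 17.7 CPM in cells with Trh on plates 12, 13, 25, 39 and 40, and 7.48, 8.65, 6.04, 3.24 and 3.26 CPM in cells without. These sides did not overlap either, but the log2 ratio ran from 0.22 to 2.13 between plates, with a mean of 1.10. It was 0.90 without plate 39 and 0.84 without plate 40. Cacna1i (chromosome 15, 80287238 to 80398279) had 4.80, 7.41, 4.42, 15.7 and 7.83 CPM against 1.62, 1.88, 1.97, 2.78 and 6.76 CPM. Its mean log2 ratio was 1.18 (0.19 to 2.14), which fell to 0.94 without plate 39, and the sides overlapped through plate 40. Over all cells Cacna1i had a mean of 2.11 CPM, just above the minimum of 2 CPM. It would be under the minimum without the pDR cells with Trh, so its call describes a gene near that minimum. Exons of Cacna1h share 158 bases with the opposite-strand gene Tpsg1, and those of Cacna1i overlap no other gene.

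Just under the threshold were Cacng4, a further TARP, at a log2 ratio of -0.93 and Cacna1c, an L-type pore, at -0.83. Cacng4 was lower on 5 of 5 plates and Cacna1c on 4 of 5. Of the 32 members, 12 had the same sign on every plate, among them Scn1a at -0.70 and Scn8a at -0.61, where 17.0% of all genes had. The summed serotonin markers were higher in cells with Trh on 5 of 5 plates, by a log2 ratio of 0.11, and whether this has a part in the differences was not tested.

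The mixed dissection holds other cells on other plates, and the comparison was made there too. Its reference cells differ in kind, since 296 mixed cells had Zeb2 or Irx2, against 13 in the pDR. There 40 cells had Trh, and the 8 plates with at least 3 such cells held 3 to 6 of them each. 3 members were called, Cacng5 and Cacna2d3 lower and Cacng3 higher, where 1.93% of all genes were called lower and 1.06% higher. Cacng5 had 0 to 7.45 CPM on a plate with Trh (median 0.859) and 9.01 to 41.2 CPM (median 24.0) without, a mean log2 ratio of -3.36 with 8 of 8 plates lower. Cacna2d3 had 0 to 15.8 CPM (median 1.76) against 10.9 to 27.4 CPM (median 18.2), and a log2 ratio of -2.65 with 8 of 8 plates lower. The sides overlapped for Cacna2d3 and not for Cacng5.

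Cacng3 had 154 to 245 CPM (median 202) on plates of the mixed dissection with Trh and 36.7 to 87.9 CPM (median 74.9) without, so that the lowest plate with Trh was above the highest without. Its log2 ratio was 1.57 (1.08 to 2.63). In the pDR the same ratio was 0.45, with 5 of 5 plates higher, from levels of 158 to 216 CPM with Trh and 117 to 147 CPM without. Whether the dissections differ in this ratio was not tested. Over mixed cells, Cacng3 had 26.1 CPM with Zeb2 and not Irx2 and 38.9 CPM with Irx2 and not Zeb2. Among mixed cells with neither, it had 227 CPM in the 35 with Trh. There it had 103 CPM in the 292 with Slc17a8 and not Trh, and 90.6 CPM in the 86 without both. The part of the Zeb2 and Irx2 cells in the ratio was not tested. The T-type pores that rose with Trh in the pDR were not called in the mixed dissection, where Cacna1h had a log2 ratio of -0.29 with 2 of 8 plates higher and Cacna1i one of 0.83 with 6 of 8 plates higher. Cacna1g, at -1.25, was lower on 6 of 8 plates and so was not called. Besides the called members, Cacna2d1 (0.59) and Scn9a (0.39) were higher on 8 of 8 plates, where 7.18% of all genes had the same sign on every plate. The summed serotonin markers were higher on 8 of 8 plates, by 0.20, and the oligodendrocyte markers lower on 7 of 8, by 1.28. The part of either was not tested.

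**Figure D2:**
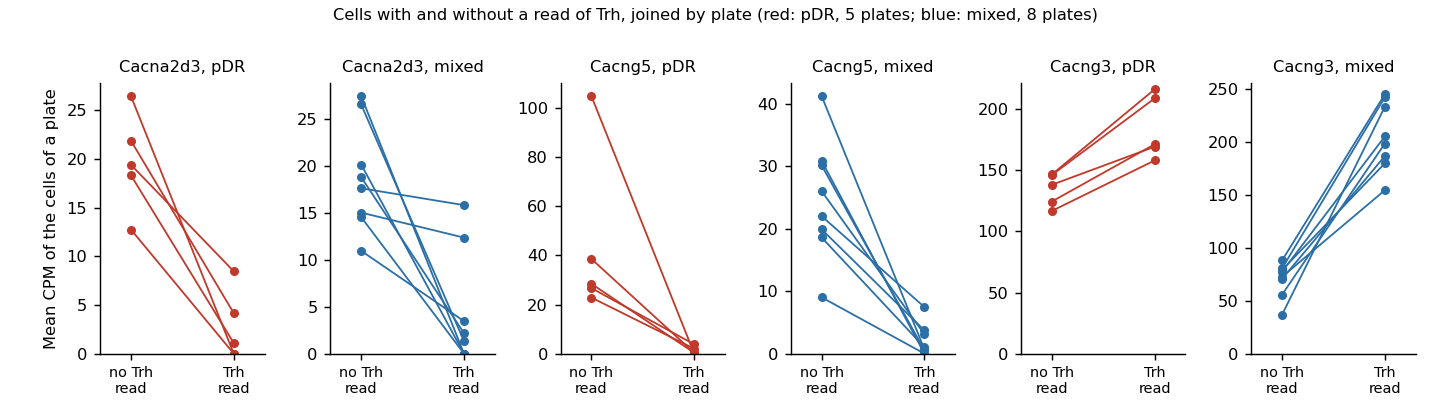
Mean CPM of Cacna2d3, Cacng5 and Cacng3 in cells without (left) and with (right) a read of Trh, each line 1 plate, in the pDR (red, 5 plates) and the mixed dissection (blue, 8 plates). Cacna2d3 and Cacng5 are lower with Trh on every plate, Cacng5 from 22.8 to 105 CPM down to at most 3.78 CPM in the pDR, and Cacng3 is higher on every plate.

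The RefSeq promoter table (GRCm38.p6) holds entries for 6 of the 9 members called in any comparison. The 250 bases before the start are shown for the 3 of them called with Trh in the pDR, Cacna2d3 and Cacng5, which fell, and Cacna1i, which rose, to show the CG dinucleotides before their starts. Capitals mark CG dinucleotides, which read the same on both strands and occur at least once in 92.1% of the 32851 promoter windows of this length, with a median of 6.
Cacna2d3, chr14:29721865-29722114, minus strand: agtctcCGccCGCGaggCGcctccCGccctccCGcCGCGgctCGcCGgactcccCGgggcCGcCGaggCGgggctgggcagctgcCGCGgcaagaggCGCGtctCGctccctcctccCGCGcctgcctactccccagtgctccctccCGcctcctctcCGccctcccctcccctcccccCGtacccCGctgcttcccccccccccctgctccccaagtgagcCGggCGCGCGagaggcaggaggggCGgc
Cacng5, chr11:107915056-107915305, minus strand: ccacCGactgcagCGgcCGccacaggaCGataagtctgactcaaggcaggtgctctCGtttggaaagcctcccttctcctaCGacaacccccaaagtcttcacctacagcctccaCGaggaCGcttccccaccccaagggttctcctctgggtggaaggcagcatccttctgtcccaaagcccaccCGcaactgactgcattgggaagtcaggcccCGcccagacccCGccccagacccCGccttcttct
Cacna1i, chr15:80286988-80287237, plus strand: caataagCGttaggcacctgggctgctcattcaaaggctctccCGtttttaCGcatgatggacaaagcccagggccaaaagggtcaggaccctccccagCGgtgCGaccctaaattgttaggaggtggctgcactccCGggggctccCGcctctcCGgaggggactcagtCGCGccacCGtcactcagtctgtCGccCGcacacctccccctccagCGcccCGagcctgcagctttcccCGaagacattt
The Cacna2d3 window has 30 CG dinucleotides, more than 94.1% of all windows, at a GC content of 80.0%. The Cacng5 window has 12, more than 66.5% of windows, at 62.0% GC, and a second RefSeq start of Cacng5, within the gene, has 2. In the window of Cacna1i there are 16, at 62.4% GC. These counts describe the sequence and were not related to the expression values.

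Gad1 or Gad2 was found in 183 pDR cells, and 107 had neither, with medians of 751914 and 760952 reads. 4 members were called, Cacng5, Cacna2d3 and Cacng4 lower and Cacna1i higher in cells with Gad, where 1.17% of all genes were called lower and 1.72% higher. Cacng5 had 0.743 to 8.41 CPM on the 5 plates with Gad and 31.7 to 148 CPM without, a log2 ratio of -3.34. For Cacna2d3 these were 0.686 to 7.96 and 19.8 to 36.6 CPM, a log2 ratio of -2.63. Neither gene had overlapping sides. The summed serotonin markers were higher with Gad on 5 of 5 plates, by 0.14 on the log2 scale, and the oligodendrocyte markers were lower on 4 of 5, with a mean log2 ratio of -0.44. The part of the serotonin markers in these values was not tested, and the same members were called without the cells above 1000 CPM of oligodendrocyte markers.

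Cacng4 (chromosome 11, 107732357 to 107794557) is the neighbour of Cacng5 in the genome. It had 14.5, 22.0, 9.46, 9.00 and 8.61 CPM with Gad on plates 12, 13, 25, 39 and 40, and 42.0, 49.6, 29.2, 26.4 and 23.9 CPM without. The sides did not overlap, and the log2 ratio of -1.40 varied little between plates (-1.53 to -1.14). The next gene of this stretch, Cacng1, was at a mean of 0.117 CPM over all cells. Cacna1i had 3.82 to 10.8 CPM with Gad and 0.615 to 4.18 CPM without, a log2 ratio of 1.16. Without the pDR cells with Gad it would be under the minimum of 2 CPM, so this call too describes a gene near that minimum. Scn7a reached 1.18 but was higher on 4 of 5 plates only. With the called members, 9 of 32 had the same sign on every plate, where 17.0% of all genes had.

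When cells with Trh were left out of both sides, Cacng5, Cacna2d3 and Cacng4 were still called lower with Gad, at log2 ratios of -2.58, -2.14 and -1.36, and Cacna1i was at 0.23. In that comparison 1.13% of all genes were called lower and 0.921% higher, and 12.2% (5 of 32 members) had the same sign on every plate. The summed oligodendrocyte markers were lower on 5 of 5 plates there (-0.86), from 7.09 to 75.2 CPM with Gad and 13.2 to 141 CPM without, and the serotonin markers higher on 5 of 5 (0.11), and the part of either was not tested. Set against the 86 Gad cells without Trh, the 98 cells with Trh had less Cacng5 (log2 ratio -2.30, 5 of 5 plates lower) and more Cacna1h (1.55, 5 of 5 plates higher), where 0.877% of all genes were called lower and 1.13% higher. The same sign on every plate was found for 7 of 32 members and 12.0% of all genes. Cacna2d3 was at -1.43 in that comparison with 4 of 5 plates lower, and Cacna1i at 1.25 with 4 of 5 plates higher. These subdivisions were chosen after the first comparisons had been seen.

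In the mixed dissection none of the 32 members was called for Gad, in 164 cells with and 545 without, where 0.113% of all genes were called lower and 0.0521% higher. The largest value was that of Cacng5, -0.79, with 8 of 11 plates lower. No member had the same sign on every plate, where 0.834% of all genes had. On the scale of mean log2(CPM + 1) over cells Cacng5 was called. Cacna2d3 had a log2 ratio of -0.71 in these cells, and was lower on 9 of 11 plates. Of the mixed cells with Gad, 17.7% had Trh, against 53.0% in the pDR.

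Slc17a8 divided the pDR cells in the opposite way, with 131 cells with a read and 159 without, at medians of 774734 and 727211 reads. Cacna2d3 and Cacng5 rose and Scn7a fell, where 1.32% of all genes were called higher and 1.11% lower. Cacna2d3 had 22.4, 26.9, 17.5, 36.5 and 25.6 CPM with Slc17a8 on plates 12, 13, 25, 39 and 40 and 7.13, 8.51, 0.690, 2.87 and 2.94 CPM without, a log2 ratio of 2.51 with no overlap. Cacng5 had 28.9, 26.8, 32.6, 144 and 44.6 CPM against 6.45, 9.22, 9.96, 11.9 and 15.1 CPM, a log2 ratio of 2.01, again with no overlap. Plate 39, with 28 cells, held the highest Cacng5 level on the Slc17a8 side. Without it the ratio was 1.64.

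The log2 ratio of Scn7a (chromosome 2, 66673425 to 66784914) was -1.06, which rested mainly on plate 25 at -3.15. Without that plate it was -0.53 and without plate 12 it was -0.93, so the call depends on these plates. In the same comparison 8 members had 1 sign on every plate, where 17.2% of all genes had, among them Cacna1h at -0.73 and Scn1a at 0.71. Among the 86 Gad cells without Trh, Cacna2d3 and Cacng5 had log2 ratios of 1.02 and 0.31 for Slc17a8 over 4 plates and were not called. There only Scn7a was called, at -1.02, where 1.79% of all genes were called higher and 1.50% lower and 17.4% (7 of 32 members) had 1 sign on every plate.

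For Slc17a8 in the mixed dissection, with 518 cells against 191 and medians of 897954 and 800645 reads, none of the members was called, where 0.200% of all genes were called higher and 0.130% lower. Cacna1e, the R-type pore, was the only one of the 32 with the same sign on every plate, at a log2 ratio of 0.66 with 11 of 11 plates higher, where 1.63% of all genes had. It had 68.5 to 128 CPM with Slc17a8 and 30.5 to 86.1 CPM without. In the pDR its ratio for Slc17a8 was 0.34, with 5 of 5 plates higher.

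Divided so that no cell was in more than 1 set, the pDR cells differed in Cacng5 and Cacna2d3 as follows, with means over cells. Cacng5 stood at 2.25 CPM in the 98 cells with Trh, 11.7 CPM in the 86 with Gad but not Trh, 58.6 CPM in the 84 with Slc17a8 but neither Gad nor Trh, and 33.9 CPM in the 22 with none of these. Cacna2d3 had 4.17, 7.32, 32.4 and 16.4 CPM in the same sets. A read of both genes was found in 4 of the 98 cells with Trh and in 51 of the 84 cells with Slc17a8 alone, and a read of neither in 62 and 4 of them. The sets had median depths between 743435 and 771921 reads. Cacna1h, called higher with Trh, had 11.2, 5.97, 5.53 and 12.3 CPM in these sets, in the same order. It was thus not highest in the cells with Trh, although the set with none of the markers holds 22 cells only.

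In the mixed dissection, the Zeb2 and Irx2 sets had these genes in different shares of cells. Of the 142 cells with Zeb2 and not Irx2, 92 had a read of Cacna2d3 and 50 one of Cacng5. Of the 149 cells with Irx2 and not Zeb2, 64 had Cacna2d3 and 123 had Cacng5. Cacna2d3 without Cacng5 was found in 56 of the first set and 7 of the second, and Cacng5 without Cacna2d3 in 14 and 66. The median depths were 887993 reads with Zeb2 and 784737 with Irx2, and with cells thinned to 250000 reads the shares with Cacna2d3 were 63.4% and 40.8% and those with Cacng5 were 29.6% and 70.1%. The mean of Cacna2d3 did not follow its share, at 16.4 CPM over the cells with Zeb2 and 19.7 CPM over those with Irx2, while Cacng5 had 12.8 and 22.3 CPM. Neither gene was called between these sets, where Cacna2d3 had a log2 ratio of -0.13 with 6 of 11 plates higher with Zeb2.

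Zeb2 was found in 147 cells of the mixed dissection and in 3 cells of the pDR. The paper reports Zeb2 both in its caudal dorsal raphe cluster and in a median raphe cluster, so this set may pool cells of both. Of the 32 members, Scn1a and Cacng3 fell in cells with Zeb2 and none rose, where 3.86% of all genes were called lower and 1.42% higher. The 147 cells with and 562 cells without Zeb2 had medians of 884326 and 869119 reads, and the summed serotonin markers differed by 0.05 on the log2 scale, with 5 of 11 plates higher.

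Scn1a (chromosome 2, 66270778 to 66440840) encodes a sodium channel pore best known from fast-spiking inhibitory neurons. It had 12.7 to 38.8 CPM with Zeb2 (median 22.1) and 43.4 to 56.9 CPM without (median 45.1). The sides did not overlap, and the log2 ratio was -1.07 (-1.89 to -0.24). Without plate 60 it was -0.99, which leaves Cacng3 alone called. The other pores that lie beside it on chromosome 2 had log2 ratios of -0.04 for Scn2a, -0.21 for Scn3a, -0.33 for Scn9a and 0.82 for Scn7a. None of these 4 was called, and Scn7a was higher on 8 of 11 plates.

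Cacng3 (chromosome 7, 122670492 to 122769393) had 8.73 to 48.8 CPM with Zeb2 (median 26.6) and 41.6 to 111 CPM without (median 89.1). The log2 ratio was -1.66 (-3.19 to -0.85), with 11 of 11 plates lower, although the ranges of the plates overlapped. Cacng5 had a log2 ratio of -1.42 but was lower on 8 of 11 plates only, while the share of cells with a read was 34.7% (27.0 to 43.0%) with Zeb2 and 79.5% (76.0 to 82.8%) without. It was called with cells thinned to 250000 reads and on mean log2(CPM + 1). Cacna2d2 was just under the threshold at -0.81, with 10 of 11 plates lower. Scn2b had a log2 ratio of 0.29 and was higher on 11 of 11 plates, which made 3 of 32 members with the same sign on every plate, where 11.1% of all genes had. The pacemaker channel genes Hcn2 and Hcn3 had log2 ratios of 0.29 and 0.43, and neither had the same sign on every plate.

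**Figure D3:**
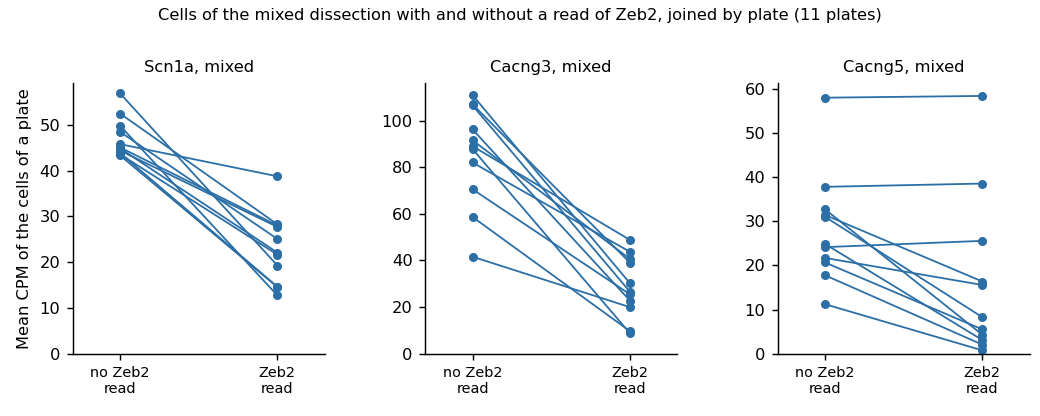
Mean CPM of Scn1a, Cacng3 and Cacng5 in cells of the mixed dissection without (left) and with (right) a read of Zeb2, each line 1 of 11 plates. Scn1a and Cacng3 are lower with Zeb2 on every plate, and Cacng5 is lower on 8 of 11.

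For Irx2, found in 154 cells of the mixed dissection and 10 of the pDR, none of the members was called, where 0.356% of all genes were called higher and 0.686% lower. Cacng3 was nearest, at a log2 ratio of -0.89 with 8 of 11 plates lower, from 24.6 to 62.7 CPM with Irx2 and 28.8 to 114 CPM without. Cacna1e at -0.62 and Scn2b at -0.24 were lower on 11 of 11 plates, where 3.85% of all genes had the same sign on every plate. Cells with Irx2 had fewer reads, with a median of 785380.5 against 910859, and lower summed serotonin markers on 11 of 11 plates, by 0.22 on the log2 scale. The part of depth in these values was not tested beyond the thinned cells, in which no member was called either.

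Since cells with Zeb2 are in the reference of the Irx2 comparison and the reverse, each was also set against the 413 mixed cells with neither. Zeb2 gave Scn1a at -1.18 and Cacng3 at -1.91, both lower on 11 of 11 plates, where 1.52% of all genes were called higher, 3.93% were called lower and 11.0% had 1 sign on every plate. Irx2 gave Cacng3 at -1.26 with 10 of 11 plates lower and Cacna1g at 1.28 with 10 of 11 plates higher, so that neither was called, where 0.208% of all genes were called higher, 0.512% were called lower and 2.28% had 1 sign on every plate. For Zeb2 the ratio of Cacna1g was 1.18 with 8 of 11 plates higher. Both rest on the same 413 cells. Set directly against cells with Irx2, cells with Zeb2 had log2 ratios of -1.09 for Scn1a, -1.04 for Cacna2d2 and -1.02 for Cacng5 with 10 of 11 plates lower each. None of the members was called, where 1.55% of all genes were called higher and 2.94% lower, and 2 of 32 members had 1 sign on every plate, where 8.66% of all genes had.

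**Figure D4:**
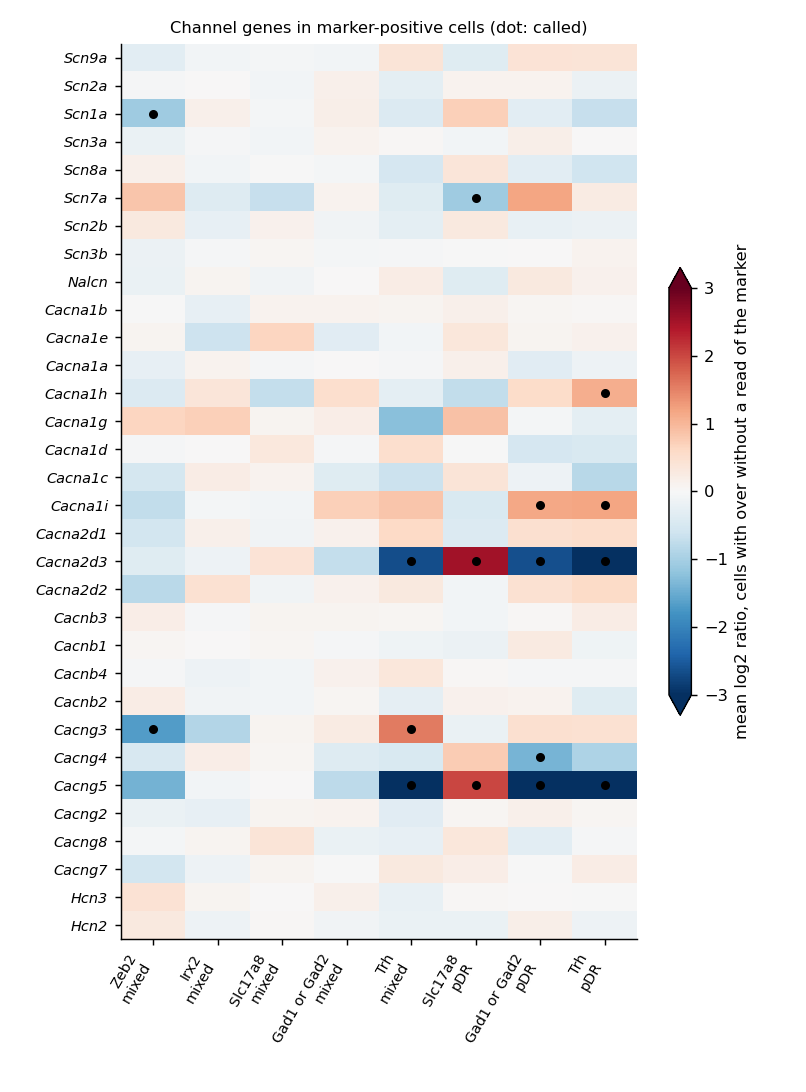
Mean over plates of the log2 ratio of mean CPM in cells with over cells without a read of each marker, for the 32 members (rows, by family) in 5 comparisons of the mixed dissection and 3 of the pDR (columns); red is higher, blue lower, the scale ends at 3 in size, and black dots mark called members. The called members are Scn1a and Cacng3 for Zeb2 and, for Trh, Gad and Slc17a8, Cacna2d3 and Cacng5 with Cacng3, Cacng4, Scn7a, Cacna1h or Cacna1i, and no member is called for Irx2 or, in the mixed dissection, for Slc17a8 or Gad.

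Between the dissections, the log2 ratio was taken of the mean of the plate means. The plates of one dissection are all different from those of the other, so the dissection and the plates cannot be told apart. Of the 32 members, Cacna1i and Cacng3 were called higher in the pDR and Cacna1g lower, where 3.24% of all genes were called higher and 1.99% lower. Cacna1i and Cacna1g passed the minimum of 2 CPM only through the side where they were higher, with plate means averaging 4.80 CPM in the pDR and 1.404 CPM in the mixed dissection for Cacna1i, and 1.72 and 5.49 CPM for Cacna1g, so their calls are descriptions of genes near that minimum. Only Cacng3 was called with plates that did not overlap, where 2.89% of all genes were.

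Cacng3 had 179, 165, 125, 150 and 135 CPM on the pDR plates 12, 13, 25, 39 and 40, and 32.0 to 102 CPM on the mixed plates (median 78.1). The log2 ratio of 1.02 was close to the threshold, and lay between 0.945 and 1.083 as each plate was left out, falling under it without plate 12, 13, 48, 56 or 67. When cells with Zeb2 or Irx2 were left out, which removed 13 pDR and 296 mixed cells, it was 0.60 and the plates overlapped, where 2.64% of all genes were called higher and 1.33% lower. Cacna1i had 3.09, 3.57, 2.48, 7.85 and 6.99 CPM in the pDR and 0.181 to 4.88 CPM in the mixed dissection (median 0.909), a log2 ratio of 1.27 with overlapping plates, and 1.32 without the Zeb2 and Irx2 cells. A read of it was found in 32.1% of pDR cells (26.7 to 37.8%) and 11.1% of mixed cells (8.92 to 13.7%), or 24.2% and 8.42% after thinning.

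Cacna1g (chromosome 11, 94408391 to 94474198), a further T-type pore, had 2.19, 1.26, 2.06, 2.66 and 0.429 CPM in the pDR and 2.58 to 11.9 CPM in the mixed dissection (median 4.77). The ranges touched at 1 plate of each side. The log2 ratio was -1.26, and -0.76 without the cells with Zeb2 or Irx2. Cacna1h, the remaining T-type pore, had 7.80 ± 1.07 CPM in the pDR (SD, n = 5 plates) and 8.08 ± 2.76 CPM in the mixed dissection (SD, n = 11 plates). On the scale of mean log2(CPM + 1) over cells, Cacna1g and Cacna1i were at -0.70 and 0.73 and were not called, while Hcn3 was called lower.

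Cacna2d1 was just under the threshold, at 0.84, with 150, 129, 107, 146 and 153 CPM in the pDR and 66.2 to 94.9 CPM in the mixed dissection. The plates did not overlap, with or without the cells with Zeb2 or Irx2. Plates also lay apart for Scn3a (0.75), Scn2a (0.56) and Cacnb3 (-0.59), which made 5 of 32 members with Cacng3, where plates lay apart for 9.71% of all genes. For Scn3a the gap was narrow, with 56.4 to 116 CPM in the pDR and 37.0 to 55.7 CPM in the mixed dissection. Its pDR plates 12 and 13 had 56.4 and 59.3 CPM, and plates 39 and 40 had 116 and 93.3 CPM. Scn2a had 138 to 201 CPM in the pDR and 83.7 to 131 CPM in the mixed dissection. Without the cells with Zeb2 or Irx2, the plates overlapped for Scn3a (0.62), Scn2a (0.51) and Cacng3, and lay apart for Cacnb3 (-0.57). With all cells, Cacnb3 had 41.6 to 62.1 CPM in the pDR and 70.5 to 93.8 CPM in the mixed dissection. Cacna1e, at 0.76, had plates that overlapped. The median over the members was 0.18, against -0.02 over all genes.

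**Figure D5:**
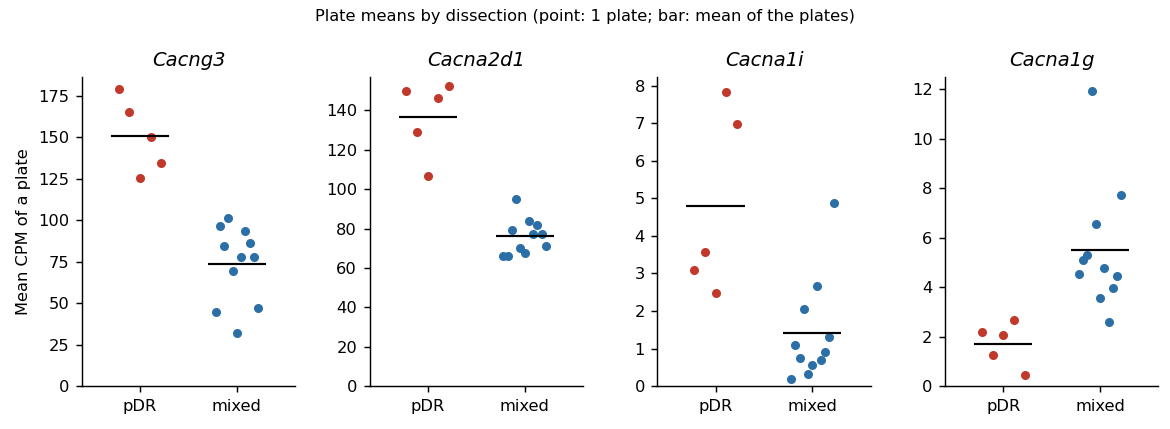
Mean CPM of Cacng3, Cacna2d1, Cacna1i and Cacna1g on each plate of the pDR (red, 5 plates) and the mixed dissection (blue, 11 plates), with bars at the mean of the plates. The plates lie apart for Cacng3 and Cacna2d1 and overlap for Cacna1i and, at 1 plate of each side, for Cacna1g.

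Genes of proteins that bind these channels were counted beside them. Of 13 listed, the intracellular fibroblast growth factors Fgf11, Fgf12, Fgf13 and Fgf14, the axon initial segment genes Ank3, Sptbn4 and Nfasc, the HCN partner Pex5l, the NALCN subunits Unc79, Unc80, Fam155a and Fam155b and the alpha2delta-like Cachd1, 11 had a mean above 2 CPM. Fgf13, whose protein binds the tail of sodium channels, was the only one of the 11 called in any of the 9 comparisons, where 12.8% of all genes other than the markers were called in at least 1. It rose in cells with Zeb2, from 266 to 555 CPM (log2 ratio 1.05, 11 of 11 plates), and fell in cells with Trh, from 206 to 91.2 CPM in the pDR (-1.19, 5 of 5 plates) and from 355 to 122 CPM in the mixed dissection (-1.77, 8 of 8 plates). Over all genes, 1.42% were called higher with Zeb2, and 1.93% lower with Trh in each dissection. Cells with Zeb2 and not Irx2, set against mixed cells with neither, had a log2 ratio of 0.99 for Fgf13. There 11 of 11 plates were higher, but it was not called. Fgf13 was also lower in the pDR than in the mixed dissection, at 169 against 340 CPM. That log2 ratio of -1.01 was just past the threshold, where 1.99% of all genes were called lower. The part of the Zeb2 cells in it was not tested. Unc79, Unc80 and Fam155a were not called in any of these comparisons. Some partners passed 1 in size but not on every plate. Cachd1 was at -1.10 for Irx2 (1 of 11 plates higher). For Trh in the mixed dissection, Cachd1 was at -1.17 (2 of 8 plates higher) and Fgf11 at -1.30 (1 of 8). Among the pDR Gad cells without Trh, Cachd1 was called higher with Slc17a8 (1.38, 4 of 4 plates), where 1.79% of all genes were called higher.

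Over all 9 comparisons 9 of the 32 members were called in at least 1 and 23 in none, where 12.8% of all genes other than the markers were called in at least 1. Among the 23, the log2 ratios in the 8 marker comparisons stayed within 0.18 in size for Scn3b, 0.21 for Scn3a and 0.23 for Cacnb3. They stayed within 0.24 for Cacna1b, 0.27 for Cacnb1, 0.29 for Scn2a and Hcn2 and 0.30 for Scn2b. Nalcn ran from -0.37 to 0.29. These ranges leave out the comparison between the dissections. There Scn2b averaged 843 CPM in the pDR and 502 CPM in the mixed dissection. Scn3a had 78.2 and 46.0 CPM, Scn2a 160 and 108 CPM, and Cacnb3 52.2 and 79.2 CPM. Scn3b, at 136 and 125 CPM, and Cacna1b, at 71.8 and 70.9 CPM, differed less. None of the sodium channel beta subunits Scn2b and Scn3b, the calcium channel beta subunits or the high-threshold pores Cacna1a, Cacna1b, Cacna1c, Cacna1d and Cacna1e was called in any of these comparisons, which does not show that they do not differ. The 9 called members are all 3 T-type pores, the sodium pores Scn1a and Scn7a, Cacna2d3 and the TARP genes Cacng3, Cacng4 and Cacng5. Of these, Cacna1i and Cacna1g passed the minimum level only through the cells where they were higher.

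Over single cells, the measured values of the members correlated only weakly for most pairs. Of 496 pairs among the 32 members, 7 had a Pearson r of ln(CPM + 1) above 0.3 in the pDR and 1 had in the mixed dissection, with medians of 0.05 and 0.03. The lowest r was -0.34 in the pDR and -0.24 in the mixed dissection. The share over pairs of all genes is not given here. The highest in the pDR were Cacng5 with Cacng4 (0.38), Cacnb3 with Cacna1a (0.38), Scn2b with Cacna1a (0.35), Cacng4 with Cacna2d3 (0.35) and Hcn3 with Cacna1a (0.34), over 290 cells. In the mixed dissection they were Cacng3 with Cacna1e (0.34), Scn9a with Cacng3 (0.25), Scn1a with Cacng5 (0.25), Cacng5 with Cacna2d3 (0.24) and Scn9a with Scn7a (0.22), over 709 cells. The cells of a pair share library, depth and plate, so these values are descriptions, and a low r does not show that 2 genes vary apart.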

How the data were processed

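Single tdTomato-positive cells were sequenced as Smart-seq2 libraries without unique molecular identifiers. According to the paper and the processing notes, the authors aligned reads with STAR 2.6.1a to mm10 (GRCm38), counted them on genes with HTSeq 0.11.2 ignoring strand, left out Y chromosome genes as well as cells with few genes or reads, and deposited CPM. The annotation they used is not given in the sources used here. All values above 0 were whole reads within 0.001, so reads were recovered. The table holds 999 of 1536 labelled cells, and the other 537 were not analysed here. Plates were read from the labels. The 11518 genes with a mean above 2 CPM were compared by plate means in Python 3.11.15 (NumPy 2.4.6, pandas 2.3.3, SciPy 1.17.1, matplotlib 3.10.9) as the report states, with no test. Clopper-Pearson 95% intervals and limits at 0 reads (3 cells over the number of cells) cover counting error only. The steps were tested on simulated data.

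The members and gene lists were chosen with earlier results of these data known. Members were named in full if called, at a log2 size of 0.8 to 1, or highest per exon length in their family. Markers themselves were no result. Of the genes matching the rule, 3 are not reported here. Alternatives were a pseudocount of 0.1 CPM, all genes with a read in at least 3 cells, cells thinned to 250000 reads (9 shallower cells left out), means of log2(CPM + 1), each plate left out, markers called at 10 CPM and detection at 10 CPM. Cells with over 1000 CPM of oligodendrocyte markers, and cells with a further marker, were left out as alternatives chosen after seeing the data.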

Additional observations from a re-analysis of the deposited data

How the results depend on the processing

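Of 285 repeats of called log2 ratios under alternatives, all kept their direction, and 24 were no longer called. Some of the 285 could not differ from the main result. The wider set of genes leaves the ratio of each called member as it was. For Trh in the mixed dissection, leaving out a plate other than the 8 used changes nothing. A pseudocount of 0.1 CPM, markers called at 10 CPM and leaving out cells rich in oligodendrocyte markers ended no call. With cells thinned to 250000 reads, Scn7a for Slc17a8 (-0.82) and Cacna1h for Trh (0.98) in the pDR were not called, while Cacna1g for Slc17a8 and Cacng4 for Trh in the pDR and Cacng5 for Zeb2 gained a call. On means of log2(CPM + 1), Cacna1i lost its call for Gad (0.83) and Trh (0.93) in the pDR and, with Cacna1g, between the dissections, 5 members in place of 3 were called for Slc17a8 in the pDR, and 1 in place of 0 for Slc17a8 (Cacna1e) and for Gad (Cacng5) in the mixed dissection; the cause was not tested. With cells holding Zeb2 or Irx2 left out, 1 member (Cacna1i) in place of 3 was called between the dissections. Against Gad cells without Trh, 2 members in place of 4 were called for Trh in the pDR, and among these Gad cells 1 in place of 3 for Slc17a8, in both with fewer cells by construction. As each plate was left out, 2 to 3 members were called between dissections, 1 to 2 for Zeb2 (1 without plate 60), 2 to 4 for Slc17a8, 4 to 5 for Gad and 2 to 5 for Trh in the pDR, 3 for Trh in the mixed dissection, and 0 for the other comparisons. The lowest count for Trh in the pDR came without plate 39, where Cacna1h and Cacna1i were at 0.90 and 0.94. Members with a read in over 50% of all cells numbered 27, 22 after thinning and 19 at 10 CPM. No paired analysis by animal was possible because the labels name no animals, and no result comes from a test. The marker comparisons set cells against cells of the same plate. Trh cells of the mixed dissection were few per plate, and T-type pores lie near the level of few reads, which limits their values.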
